A study of Mus musculus with 8 samples.

Results

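Genes that build the mitotic spindle, attach chromosomes to it and divide the cell were examined in the left ventricle of mice after myocardial infarction (MI). The set is a list of 49 gene symbols, picked by name and function. All 49 were found among the 24062 genes of both deposited count tables, and all 49 passed the filter on low counts that left 15508 genes to test. Without the MI libraries of 3 days, in which most of these genes were high, 48 of the 49 would still have passed that filter.

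Tissue of the left ventricular free wall came from male C57BL/6 mice aged 8 to 12 weeks. MI was made by tying the left anterior descending coronary artery, and the ischemic tissue was taken 1 day or 3 days later. Sham mice had the operation without the ligation and served as controls at each day. The 4 groups were MI at 1 day, sham at 1 day, MI at 3 days and sham at 3 days, with 2 mice each as biological replicates, so every group below has n = 2. Libraries are called A and B within a group because the count columns carry no replicate number. Total counts lay between 7.38 × 10⁶ and 25.04 × 10⁶ per library, and 3 counts were worth 0.102 to 0.369 CPM, counts per 10⁶ counts, the unit of the levels below. The labelled tissue showed in the 10 cardiomyocyte markers, which summed to 34723 to 102428 CPM in the 6 libraries other than those of MI at 3 days.

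In a dividing cell, microtubules from the spindle poles attach to kinetochores, the protein plates on centromeres. The spindle checkpoint holds the cell in metaphase until every kinetochore is attached, after which a ubiquitin ligase destroys securin, separase opens the cohesin rings and the midzone and a contractile ring split the cell. Most of these proteins are made only in late S, G2 and M phase, and the adult heart muscle cell rarely divides, so in the adult ventricle their transcripts are scarce.

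At 3 days after MI, 48 of the 49 genes were higher than in sham hearts and 1 gene, Pttg1, was lower (edgeR quasi-likelihood test, Benjamini-Hochberg adjusted p under 0.05). Of all genes tested in that comparison, 31.7% were called higher and 23.7% lower (55.4% either way). The median log2 fold change of the 49 was 4.33, a 20.1-fold difference, whereas the median of all genes tested was 0.16. The difference exceeded 10-fold for 42 of the 49 genes, against 738 genes or 4.76% of all those tested. Both MI libraries lay above both sham libraries for 48 of the 49, a separation seen in 45.9% of all genes tested. The 49 levels summed to 3239 and 3462 CPM in MI hearts at 3 days, against 379 and 295 CPM in sham hearts. The sums of all 8 libraries thus placed the MI pair of 3 days far above the rest, as the map of levels by library shows.

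**Figure D1:**
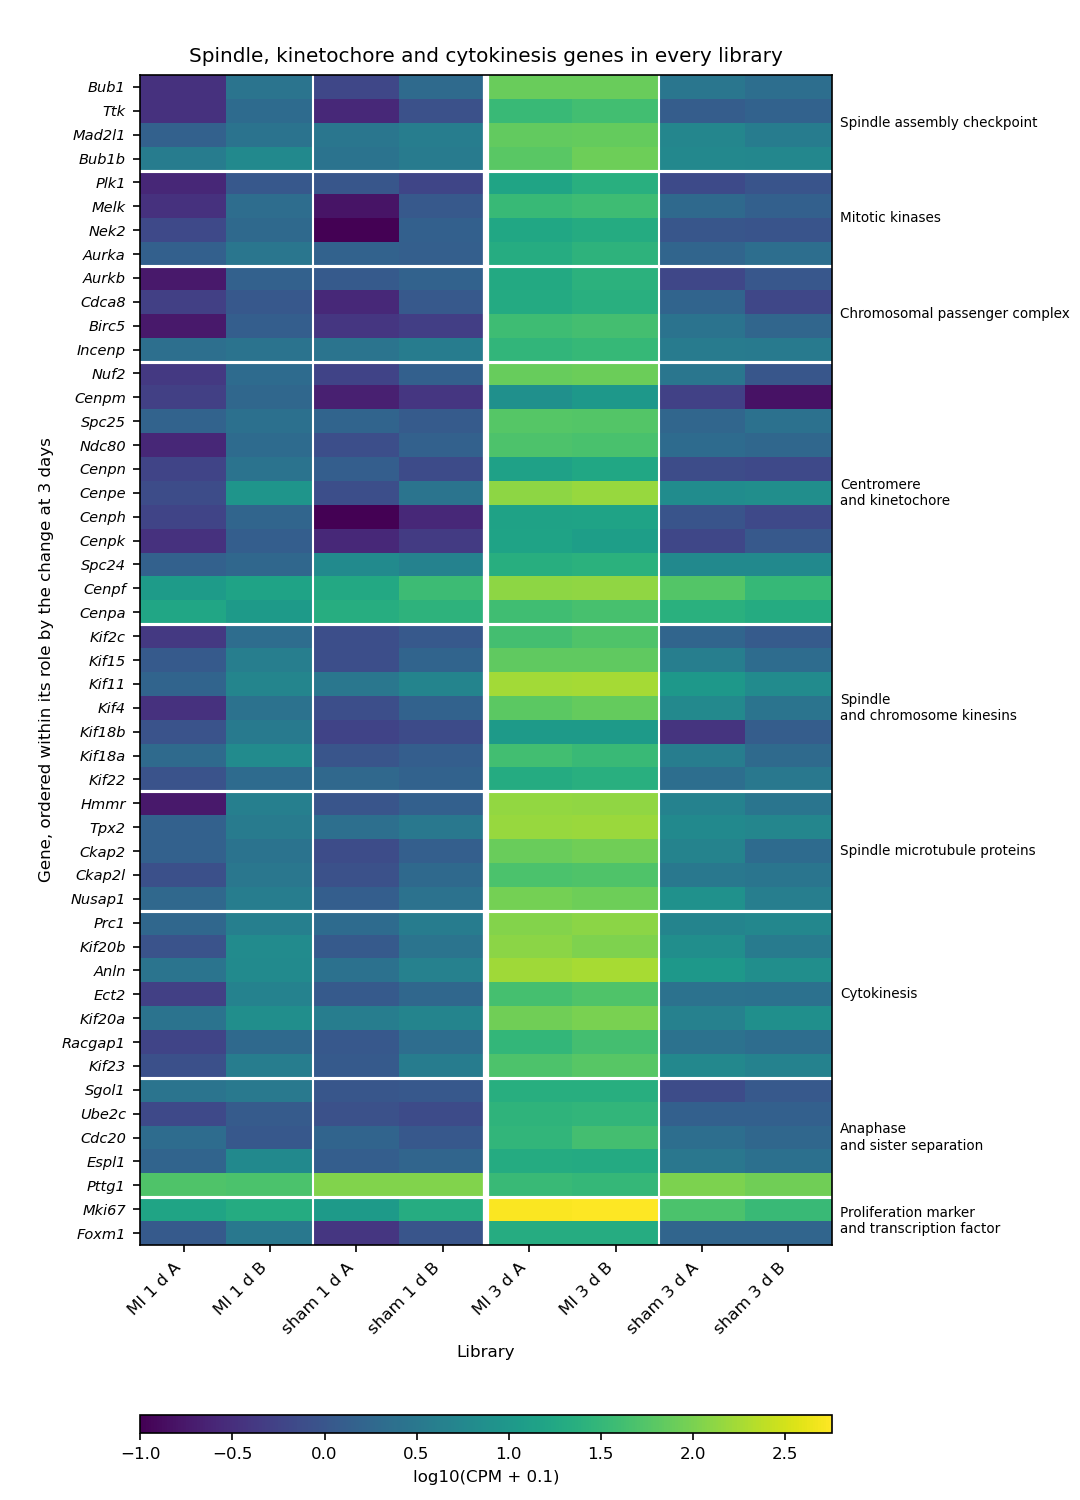
Levels of the 49 genes (rows, grouped by role and ordered within a role by the change at 3 days) in the 8 libraries (columns), as log10(CPM + 0.1) by colour. The columns of MI at 3 days are the brightest in every row except that of Pttg1, which was lower in MI than in sham hearts at both days.

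Markers of several cell types also differed between the same MI and sham libraries. All 10 cardiomyocyte markers were lower at 3 days, and they summed to 3876 and 4214 CPM in MI hearts, against 69136 and 74286 CPM in sham hearts. All 10 monocyte and macrophage markers were higher, with sums of 12136 and 10299 CPM in MI hearts and 1109 and 598 CPM in sham hearts. Activated fibroblast markers were higher for 7 of 7, with sums of 8556 and 8165 CPM in MI hearts and 560 and 499 CPM in sham hearts. Markers of muscle cells were thus far lower, and those of macrophages and activated fibroblasts far higher, than in sham hearts. Neutrophil markers were higher for 7 of 8, with sums of 882 and 501 CPM in MI hearts and 212 and 111 CPM in sham hearts. Endothelial markers moved both ways, 3 higher and 2 lower of 9, and summed to 1926 and 1435 CPM in MI hearts and 1728 and 1353 CPM in sham hearts. No marker of these 5 lists was at 0 in any library. Since whole tissue was sequenced, a change in the number of cells of a type and a change in RNA per cell cannot be told apart, and the part of this shift in cell markers in the results below was not tested.

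**Figure D2:**
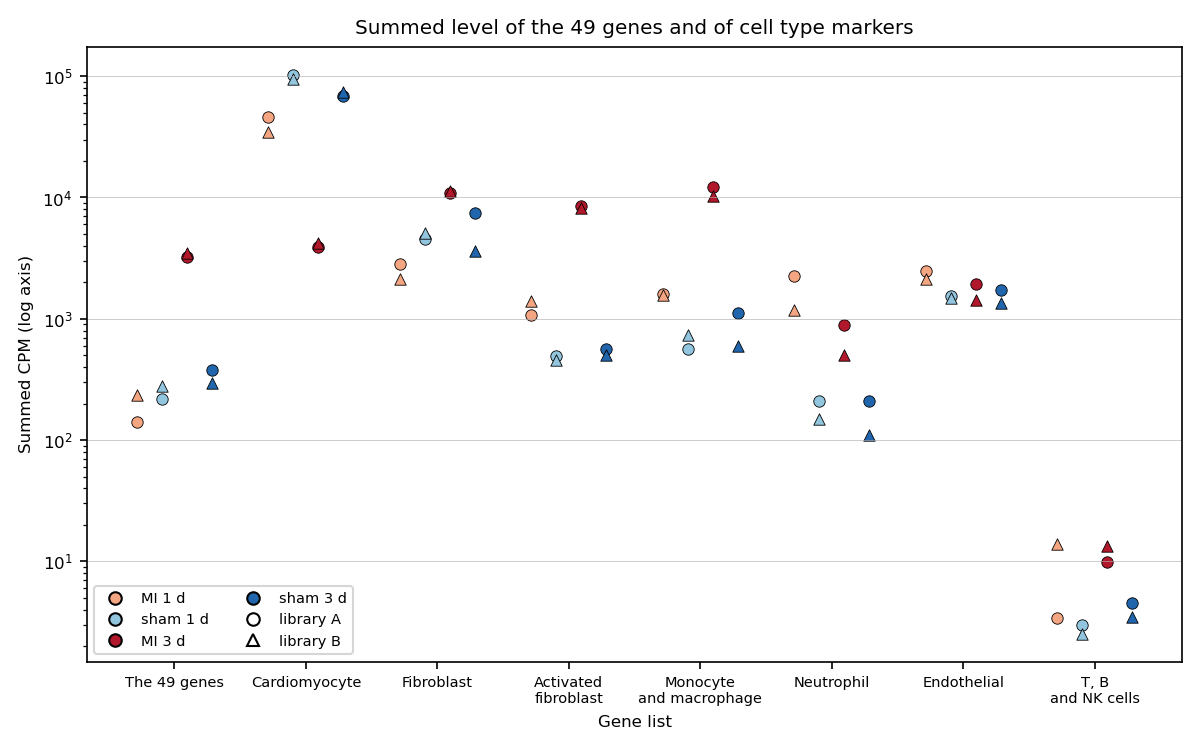
Summed CPM (log axis) of the 49 genes and of 7 lists of cell type markers in each library, with MI left of sham at each day, circles for library A and triangles for library B. At 3 days the 49 genes reach 3239 and 3462 CPM in MI hearts, against 379 and 295 CPM in sham hearts, while the cardiomyocyte markers are at 3876 and 4214 CPM in MI hearts, against 69136 and 74286 CPM in sham hearts.

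Promoters of such genes are known to bind the DREAM and MMB complexes through the cell cycle genes homology region (CHR, TTTGAA), often beside CCAAT boxes bound by NF-Y. RefSeq promoter windows of GRCm38.p6, from 250 bases before to 50 after each start, were matched to 43 of the 49 genes and searched on both strands. TTTGAA was present in 29 of the 43 (67.4%), against 1669 of 11388 genes tested here that had a window (14.7%) and 20.2% of all 27025 genes in the table. Among 3540 other genes that were higher in MI hearts at 3 days, 16% held it. It was also frequent in related lists, at 53.8% of condensin and cohesin genes, 50% of other spindle, centrosome and midbody genes, 42.9% of DREAM and MMB genes, 41.7% of mitotic entry and exit regulators and 34.8% of other kinetochore genes, against 20% of DNA replication genes and 13.3% of the anaphase-promoting complex. CCAAT was present in 31 of the 43 (72.1%), against 42.1% of the genes tested, and both motifs stood in 1 window for 24 (55.8%), against 5.82%. The variant TTCGAA was present in 4 (9.3%, against 2.32%). The letters GCGGGA, present in 20 (46.5%, against 37.4%), and GGCGGG, present in 32 (74.4%, against 63.6%), are found in E2F sites and overlap each other where both occur as GGCGGGA. The 43 genes had 47 windows, some of which overlap, and a site shared by overlapping windows was counted once. Of the 36 distinct TTTGAA sites, 27 (75%) began between 60 bases before and 40 after the nearest start, against 27.4% of 6315 sites in all promoters, and the median offset was 2.5 bases after the start, against 123 before it.

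These are the windows of the genes with the largest and second largest rise (Nuf2 and Hmmr), of the kinase Plk1 and of Pttg1, the gene that fell; capitals mark TTTGAA and CCAAT on either strand, and each is read 5′ to 3′ along its gene.
Nuf2 (chr1:169531415-169531714, minus strand): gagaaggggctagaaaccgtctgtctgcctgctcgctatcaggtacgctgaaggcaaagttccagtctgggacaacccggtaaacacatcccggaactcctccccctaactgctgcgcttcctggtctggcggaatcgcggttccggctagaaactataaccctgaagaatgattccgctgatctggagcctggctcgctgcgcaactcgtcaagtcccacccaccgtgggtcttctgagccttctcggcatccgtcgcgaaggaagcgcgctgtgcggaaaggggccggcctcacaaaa
Hmmr (chr11:40733388-40733687, minus strand): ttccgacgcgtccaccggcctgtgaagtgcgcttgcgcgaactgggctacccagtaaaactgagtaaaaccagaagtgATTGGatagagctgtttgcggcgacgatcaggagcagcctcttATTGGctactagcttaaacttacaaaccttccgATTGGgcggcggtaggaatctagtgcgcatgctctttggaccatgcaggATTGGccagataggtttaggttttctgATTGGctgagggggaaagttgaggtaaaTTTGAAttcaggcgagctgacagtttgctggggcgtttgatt
Plk1 (chr7:122159185-122159484, plus strand): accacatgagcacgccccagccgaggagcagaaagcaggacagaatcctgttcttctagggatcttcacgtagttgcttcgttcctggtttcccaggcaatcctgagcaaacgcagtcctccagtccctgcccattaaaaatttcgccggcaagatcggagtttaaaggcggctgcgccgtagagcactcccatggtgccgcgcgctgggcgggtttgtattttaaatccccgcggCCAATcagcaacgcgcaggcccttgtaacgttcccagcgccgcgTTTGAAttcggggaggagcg
Pttg1 (chr11:43425932-43426231, minus strand): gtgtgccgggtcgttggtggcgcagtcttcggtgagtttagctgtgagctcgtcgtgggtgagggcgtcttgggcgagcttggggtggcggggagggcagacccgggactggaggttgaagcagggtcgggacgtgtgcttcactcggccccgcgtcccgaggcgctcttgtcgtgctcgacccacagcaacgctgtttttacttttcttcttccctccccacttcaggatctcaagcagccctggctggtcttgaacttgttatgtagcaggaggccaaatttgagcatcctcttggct
Hmmr held 1 TTTGAA and 5 CCAAT boxes, and Plk1 held 1 of each. Neither motif was in the window of Nuf2 or of Pttg1. The Pttg1 window is set on a start that lies 1482 bases inside the gene as RefSeq annotates it, and the gene's outer 5′ end was not examined. The same holds for 5 more of the 43 genes, whose nearest window start lay over 100 bases inside the gene. Neither CHR letters nor the CCAAT box were found in 7 of the 43 windows (16.3%, against 46.9% of all genes in the table).

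The spindle checkpoint genes were higher at 3 days for 4 of 4, with a median log2 fold change of 4.44. Bub1, the kinase that seeds the checkpoint at kinetochores, had 77.6 and 79.2 CPM in MI hearts and 2.89 and 2.18 CPM in sham hearts (log2 change 4.95 ± 0.43 SE, edgeR adjusted p = 1.32e-05). Bub1b, whose product BubR1 is part of the complex that blocks anaphase, had 61.8 and 82.8 CPM in MI hearts and 5.62 and 5.31 CPM in sham hearts (log2 change 3.72 ± 0.27). Mad2l1, whose product MAD2 captures CDC20, had 72.0 and 73.0 CPM in MI hearts and 5.24 and 3.72 CPM in sham hearts (log2 change 4.01 ± 0.26). The MI and sham libraries of all 3 genes stood far apart, with the replicates of a group close together. Ttk, the kinase MPS1 upstream of them, lay within their range at a log2 change of 4.86 ± 0.42.

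Mitotic kinases rose in the same comparison for 4 of 4, with a median log2 change of 4.46. Plk1, which acts from centrosome maturation to cytokinesis, had 15.6 and 23.3 CPM in MI hearts and 0.588 and 0.850 CPM in sham hearts (log2 change 4.75 ± 0.45, edgeR adjusted p = 1.56e-05). The smallest rise of this group was that of Aurka, the kinase of the spindle poles, at 20.8 and 26.5 CPM in MI hearts and 1.55 and 2.18 CPM in sham hearts (log2 change 3.66 ± 0.33). Both kinases were low in sham hearts and clear of them in both MI libraries. Nek2, which separates centrosomes, and Melk, a kinase that peaks in mitosis, rose by a log2 change of 4.40 ± 0.55 and 4.52 ± 0.47.

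The chromosomal passenger complex corrects faulty attachments and later moves to the midzone, and its 4 genes were all higher. Its kinase Aurkb had 19.3 and 25.6 CPM in MI hearts and 0.535 and 0.956 CPM in sham hearts (log2 change 4.90 ± 0.47, edgeR adjusted p = 1.85e-05). Birc5, which encodes the subunit survivin, had 39.0 and 43.4 CPM in MI hearts and 2.57 and 1.65 CPM in sham hearts (log2 change 4.29 ± 0.35). Incenp, the scaffold of the complex, had 29.9 and 32.6 CPM in MI hearts and 3.58 and 3.35 CPM in sham hearts (log2 change 3.17 ± 0.24). Incenp thus rose least of the complex and Aurkb most, with Cdca8, the subunit borealin, at a log2 change of 4.40 ± 0.45.

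All 11 centromere and kinetochore genes were higher at 3 days, and they held both the largest and the smallest rises of the whole set. Nuf2, a subunit of the NDC80 complex that grips microtubules, had 76.3 and 80.2 CPM in MI hearts and 2.89 and 0.903 CPM in sham hearts (log2 change 5.36 ± 0.45, edgeR adjusted p = 9.53e-06). Cenpm, of the inner kinetochore network, had 7.63 and 9.94 CPM in MI hearts and 0.428 and 0.0531 CPM in sham hearts (log2 change 5.16 ± 0.60), where the lower sham value was 1 count. Spc25, another NDC80 subunit, had 58.7 and 56.5 CPM in MI hearts and 1.66 and 2.44 CPM in sham hearts (log2 change 4.81 ± 0.27). For each of these genes the sham hearts held little more than a trace, and both MI libraries were far above it.

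Another NDC80 subunit was among the kinetochore genes with the smallest rises. Spc24, which pairs with Spc25 in that complex, had 22.3 and 25.2 CPM in MI hearts and 5.94 and 5.90 CPM in sham hearts (log2 change 2.01 ± 0.24, edgeR adjusted p = 7.79e-05). Cenpf, a large protein of the outer kinetochore and nuclear envelope, had 131 and 136 CPM in MI hearts and 56.7 and 33.1 CPM in sham hearts (log2 change 1.57 ± 0.33, edgeR adjusted p = 0.00284). Cenpa, the histone H3 variant that marks centromeres, had 39.4 and 45.8 CPM in MI hearts and 23.7 and 20.6 CPM in sham hearts (log2 change 0.94 ± 0.22, edgeR adjusted p = 0.00531). Per transcript length, these 3 genes were among the 5 most abundant of the set in sham hearts at 3 days, and MI libraries still lay above sham libraries for each. The call for Cenpa rested on both MI libraries, since the edgeR adjusted p was 0.0547 without library A of MI at 3 days and 0.159 without library B. Ndc80 rose by a log2 change of 4.74 ± 0.39, and Cenpe, Cenph, Cenpk and Cenpn, a kinetochore motor and 3 inner kinetochore proteins, by 4.15 to 4.64.

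Motor proteins of the spindle and chromosomes were higher for 7 of 7, with a median log2 change of 4.02. Kif2c, the kinesin MCAK that takes microtubule ends apart, had 43.2 and 51.7 CPM in MI hearts and 1.55 and 1.12 CPM in sham hearts (log2 change 5.15 ± 0.38, edgeR adjusted p = 5.26e-06). Kif11, the motor Eg5 that pushes the poles apart, had 173 and 179 CPM in MI hearts and 10.001 and 6.38 CPM in sham hearts (log2 change 4.43 ± 0.35). The least changed motor was Kif22, which pushes chromosome arms, at 20.5 and 23.0 CPM in MI hearts and 2.19 and 3.13 CPM in sham hearts (log2 change 3.02 ± 0.30). No library of MI hearts came near one of sham hearts for these motors. Kif15, Kif4, Kif18a and Kif18b, further mitotic kinesins, rose by a log2 change of 3.75 to 4.51.

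Among the proteins that bind spindle microtubules, 5 of 5 were higher, with a median log2 change of 4.65. Hmmr, which holds spindle poles together, had 140.4 and 137 CPM in MI hearts and 4.49 and 2.76 CPM in sham hearts (log2 change 5.25 ± 0.48, edgeR adjusted p = 1.77e-05). Tpx2, which activates Aurora A and nucleates microtubules near chromosomes, had 149 and 155 CPM in MI hearts and 5.94 and 5.26 CPM in sham hearts (log2 change 4.76 ± 0.27). Nusap1, a microtubule bundler, had 92 and 83.7 CPM in MI hearts and 7.75 and 3.99 CPM in sham hearts (log2 change 3.90 ± 0.34). The replicates of MI hearts lay close together, whereas the sham libraries of Nusap1 differed more widely. Ckap2 and Ckap2l, which stabilise spindle microtubules, rose by a log2 change of 4.65 ± 0.35 and 4.13 ± 0.35.

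Cytokinesis genes rose for 7 of 7, with a median log2 change of 4.30. Prc1, which bundles the microtubules of the midzone, had 113 and 127 CPM in MI hearts and 4.87 and 5.31 CPM in sham hearts (log2 change 4.56 ± 0.30, edgeR adjusted p = 3.01e-06). Kif23, the motor of the centralspindlin complex, had 50.1 and 59.3 CPM in MI hearts and 5.62 and 4.52 CPM in sham hearts (log2 change 3.43 ± 0.42). These were the largest and the smallest change of the group. Anln, a scaffold of the contractile ring, Ect2, the exchange factor that switches on RhoA, Racgap1, the partner of Kif23, and the motors Kif20a and Kif20b rose by a log2 change of 3.97 to 4.46.

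The genes of anaphase and sister separation split, with 4 higher and 1 lower at 3 days. Sgol1, which shields cohesin at centromeres, had 22.6 and 22.5 CPM in MI hearts and 0.642 and 1.01 CPM in sham hearts (log2 change 4.76 ± 0.32, edgeR adjusted p = 3.28e-06). Cdc20 and Ube2c, an activator and the conjugating enzyme of the anaphase-promoting complex, rose by a log2 change of 4.19 ± 0.34 and 4.42 ± 0.29, and Espl1, which encodes separase, by 2.91 ± 0.39. Pttg1, which encodes securin, the inhibitor of separase, had 34.4 and 31.4 CPM in MI hearts and 101 and 87.1 CPM in sham hearts (log2 change -1.52 ± 0.17, edgeR adjusted p = 4.98e-05). The securin transcript was 2.86-fold lower in MI hearts at 3 days while the separase transcript was 7.54-fold higher, and neither protein was measured.

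Mki67, the proliferation antigen Ki-67 that coats mitotic chromosomes, had 534 and 567 CPM in MI hearts at 3 days and 48.8 and 34.6 CPM in sham hearts (log2 change 3.72 ± 0.30, edgeR adjusted p = 7.37e-06). Foxm1, the transcription factor that drives many G2 and M genes, had 21 and 21.2 CPM in MI hearts and 1.60 and 1.59 CPM in sham hearts (log2 change 3.72 ± 0.37). The antigen and the factor changed alike at 3 days, both by 13.2-fold.

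**Figure D3:**
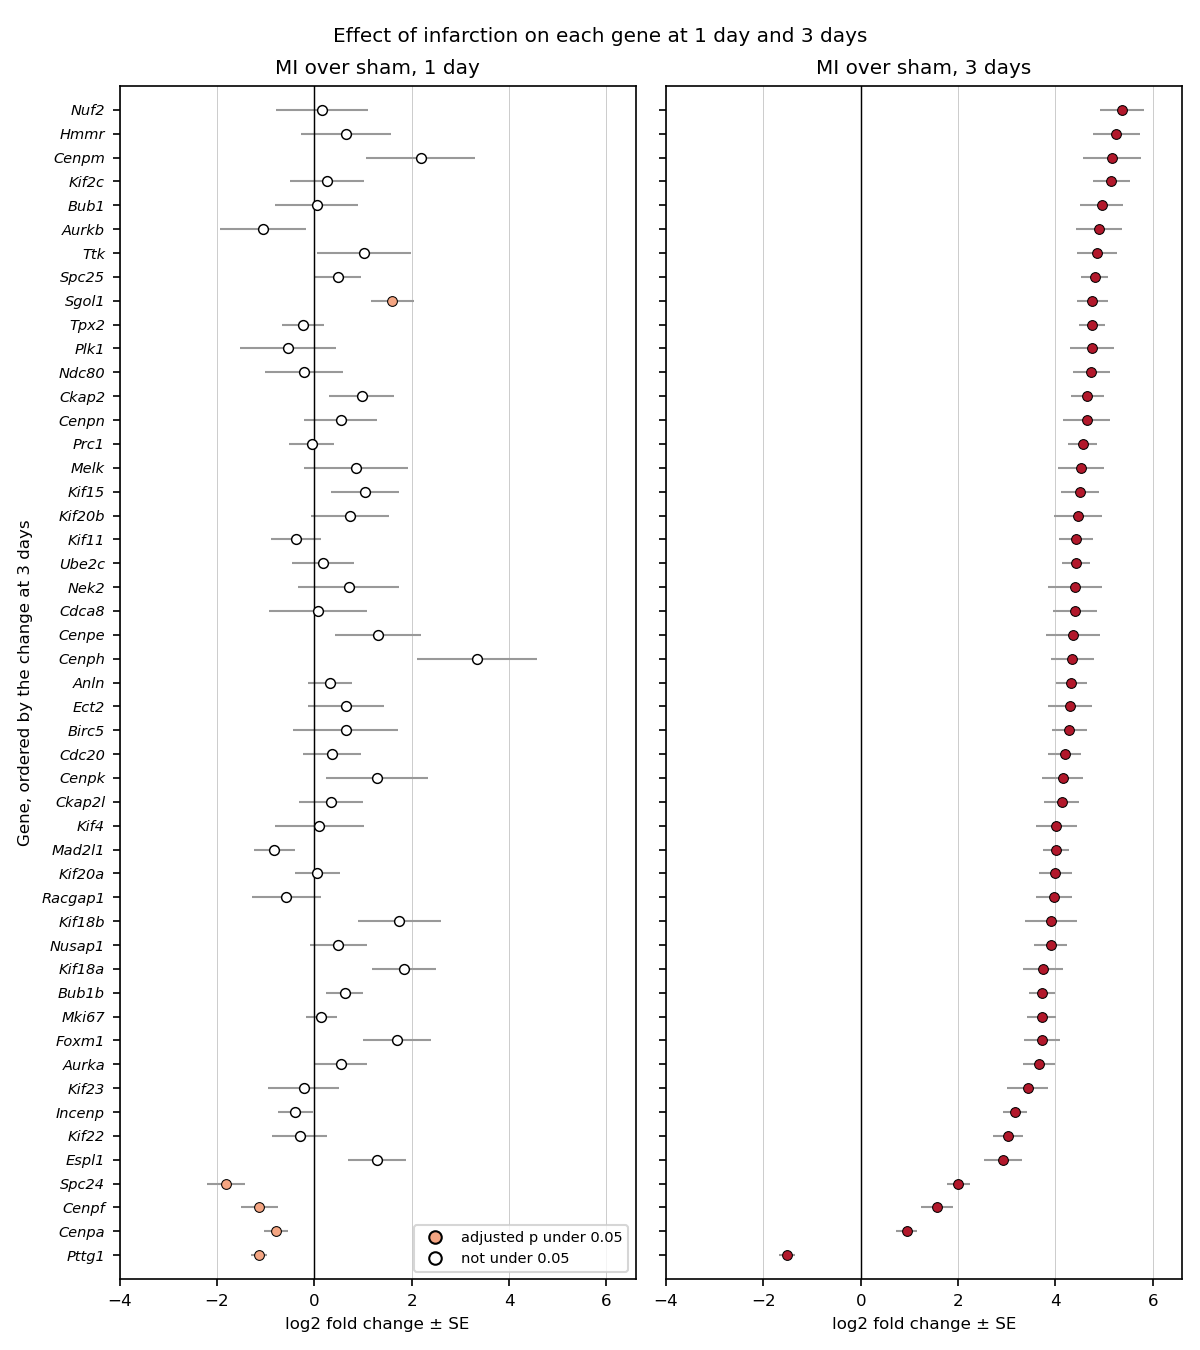
Log2 fold change of MI over sham with its SE for each of the 49 genes, at 1 day (left) and 3 days (right), ordered by the change at 3 days. Filled points passed an adjusted p of 0.05, which 5 genes did at 1 day and all 49 at 3 days, and Pttg1 is the gene below 0 at both days.

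At 1 day after MI few of the same genes were called different from sham hearts. Of the 49, 1 was called higher and 4 lower by edgeR, against 19.3% and 19.7% of all genes tested (39% either way). The median log2 fold change was 0.34, and that of all genes 0.12. Both MI libraries lay above both sham libraries for 8 genes and below them for 6, against 34.7% and 32.6% of all genes. Without Pttg1, which made up much of the total, the levels summed to 88.8 and 187 CPM in MI hearts and 106 and 168 CPM in sham hearts, so the groups overlapped. The share of the 49 genes called was thus below that of all genes in this comparison. The 49 were scarce then, with medians of 0.811 and 2.71 CPM in MI hearts and 0.985 and 1.44 CPM in sham hearts. The part of low counts in that share was not tested, so it is no measure of how little the set changed. Cell markers had already moved at 1 day. All 10 cardiomyocyte markers were lower, with sums of 46532 and 34723 CPM in MI hearts and 102428 and 94923 CPM in sham hearts. All 8 neutrophil markers were higher, with sums of 2265 and 1179 CPM in MI hearts and 210.4 and 149 CPM in sham hearts. Monocyte and macrophage markers were higher for 7 of 10, with sums of 1603 and 1576 CPM in MI hearts and 567 and 732 CPM in sham hearts. The part of these shifts in the values of 1 day was not tested.

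Pttg1 was again lower, at 51.5 and 49.6 CPM in MI hearts and 112 and 111 CPM in sham hearts (log2 change -1.14 ± 0.17, edgeR adjusted p = 0.00102), and this call held under every alternative tried. Spc24 was at 1.38 and 1.72 CPM in MI hearts and 6.14 and 4.54 CPM in sham hearts (log2 change -1.81 ± 0.39, edgeR adjusted p = 0.00596), and it lost the call only without library A of sham at 1 day (edgeR adjusted p = 0.0563). The MI and sham values of both genes stood well apart. Cenpf was at 11.3 and 14.9 CPM in MI hearts and 18.6 and 37.9 CPM in sham hearts (log2 change -1.13 ± 0.38, edgeR adjusted p = 0.0422). Cenpa had 16.3 and 10.8 CPM in MI hearts and 21.5 and 26.2 CPM in sham hearts (log2 change -0.79 ± 0.25, edgeR adjusted p = 0.0319). Securin and these 3 kinetochore genes were lower in both MI libraries than in both sham libraries. Spc24, Cenpf and Cenpa then stood above sham at 3 days, whereas Pttg1 did not. The single gene called higher was Sgol1, with 2.68 and 3.20 CPM in MI hearts and 0.927 and 0.977 CPM in sham hearts (log2 change 1.60 ± 0.44, edgeR adjusted p = 0.0193). The calls of Sgol1, Cenpf and Cenpa at 1 day did not hold when library A or B of MI at 3 days or library B of sham at 1 day was left out. They were also lost without both B libraries of 1 day and with only the 4 libraries compared in the fit. Cenpa and Cenpf lost theirs with library size alone and without library B of MI at 1 day. Cenpf further lost its call with limma-voom and without library A of MI at 1 day. Cenpa and Sgol1 lost theirs without library A of sham at 1 day.

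Other genes named above were not called by the main edgeR fit at 1 day. Cenph had the largest change, with 0.487 and 1.60 CPM in MI hearts and 0 and 0.172 CPM in sham hearts (log2 change 3.34 ± 1.24, edgeR adjusted p = 0.0518). Cenph and Kif18a were called higher by DESeq2, and by edgeR with library size alone or a filter of at least 1 CPM in 2 libraries. Mki67 had 15.7 and 20.4 CPM in MI hearts and 11.2 and 21.1 CPM in sham hearts (log2 change 0.15 ± 0.32), and the groups overlapped. Foxm1 had 1.05 and 3.08 CPM in MI hearts and 0.290 and 0.862 CPM in sham hearts (log2 change 1.70 ± 0.70, edgeR adjusted p = 0.0800), and it was called higher by DESeq2 (log2 change 1.75, adjusted p = 0.0188) and by edgeR without MI library A of 1 day (log2 change 2.31, adjusted p = 0.0133). Plk1 had 0.162 and 0.984 CPM in MI hearts and 0.927 and 0.517 CPM in sham hearts (log2 change -0.54 ± 0.98), and Aurkb had 0.0811 and 1.35 CPM in MI hearts and 1.04 and 1.44 CPM in sham hearts (log2 change -1.05 ± 0.89). For both kinases the SE at 1 day was close to or above the size of the change. Birc5 was at 0.0811 and 1.23 CPM in MI hearts and 0.290 and 0.402 CPM in sham hearts (log2 change 0.64 ± 1.07), with the sham values between the MI values.

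The 2 MI libraries of 1 day differed from each other for nearly the whole set. Library B was above library A for 46 of the 49 genes, with a median ratio of 3.28, and Hmmr was at 0.0811 CPM in A and 4.06 CPM in B. The share of all genes with library B above A was not computed, so this gap cannot be called particular to the set. Of 1513 chemosensory receptor genes (odorant, vomeronasal, trace amine and taste), which a heart should lack, 92.1% had reads in MI library B and 23.6% in A, against 50.6% and 5.35% in sham libraries B and A of 1 day and 4.43% to 8.20% in the 4 libraries of 3 days. In MI library B the receptor genes had a median of 0.492 CPM and the 49 genes a median of 2.71 CPM. MI library A held 3 counts or fewer for 10 of the 49 genes. The median change of the 49 at 1 day was -0.82 without library B and 0.99 without library A, so its sign changed with the MI library kept. With both MI libraries kept, that median was -0.12 without library A of sham at 1 day and -0.03 with transcript reads. It was positive in the other fits that kept both. The part of these low-level reads in the values of 1 day was not tested.

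The effect of MI differed between 3 days and 1 day for 37 of the 49 genes, all with the larger effect at 3 days (edgeR, interaction of surgery and day), against 13.2% of all genes in that direction and 11.3% in the other. The median of the difference was 3.70 on the log2 scale. Aurkb had the largest difference (log2 change 5.95 ± 1.00, edgeR adjusted p = 0.00280), followed by Plk1 (log2 change 5.29 ± 1.09, edgeR adjusted p = 0.00727) and Nuf2 (log2 change 5.22 ± 1.09, edgeR adjusted p = 0.00820). Cenpa had the smallest called difference (log2 change 1.73 ± 0.33, edgeR adjusted p = 0.00594). The 12 genes without a call were Nek2, Melk, Birc5, Cenpe, Cenph, Cenpk, Cenpm, Kif18a, Kif18b, Espl1, Pttg1 and Foxm1, of which 6 had 3 counts or fewer in a library of 1 day. Called genes could be as scarce. In MI hearts of 1 day Aurkb had 1 and 11 counts, Plk1 2 and 8, and Nuf2 4 and 16. For Pttg1 the effects of the 2 days differed by -0.38 ± 0.23 (edgeR adjusted p = 0.267). The count was 19 without library B of sham at 1 day and 46 without library B of MI at 1 day.

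Within MI hearts, 48 genes were higher and 1, Pttg1, lower at 3 days than at 1 day, with a median log2 change of 4.96 (edgeR), against 23.4% and 22% of all genes tested (45.4% either way). Both libraries of 3 days lay above both of 1 day for 48 genes and below them for 1, against 36.4% and 34.2% of all genes. This comparison shares its libraries with the 2 contrasts of MI with sham and adds no new samples. Mki67 had 534 and 567 CPM at 3 days and 15.7 and 20.4 CPM at 1 day, and Pttg1 had 34.4 and 31.4 CPM at 3 days and 51.5 and 49.6 CPM at 1 day (log2 change -0.62, edgeR adjusted p = 0.0146). That fall of Pttg1 lost its call with library size alone (edgeR adjusted p = 0.0615), with no filter on low counts (0.0829), and without library B of MI at 3 days (0.0858), library A of sham at 1 day (0.0769) or library B of sham at 1 day (0.0741). RPKM are scaled by transcript length and by the transcript reads of each library alone. On that scale Pttg1 was at 43.6 and 44.9 RPKM in MI hearts of 3 days. It was at 46.8 and 34.8 RPKM in those of 1 day, so the groups overlapped. The same transcript reads, scaled as the CPM are, kept the call (log2 change -0.64, edgeR adjusted p = 0.0296).

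Sham hearts of 3 days tended to hold more of these transcripts than sham hearts of 1 day, without a call. None of the 49 passed edgeR's test, nor did any of the 15508 genes (0%), while 18 of the 49 and 1211 of all genes had an unadjusted p under 0.05. DESeq2 called 2 of the 49, Birc5 and Mki67, and 44 genes in all, and limma-voom called 0 of the 49 and 0 genes in all. The mean was higher at 3 days for 43 of the 49, with a median log2 fold change of 0.86 against -0.01 for all genes. Both sham libraries of 3 days lay above both of 1 day for 32 genes and below them for 2, against 18.6% and 26.6% of all genes. Mki67 was at 48.8 and 34.6 CPM in sham hearts of 3 days and 11.2 and 21.1 CPM in those of 1 day. In sham hearts the monocyte and macrophage markers summed to 1109 and 598 CPM at 3 days and 567 and 732 CPM at 1 day, and the cardiomyocyte markers to 69136 and 74286 CPM at 3 days and 102428 and 94923 CPM at 1 day.

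Levels can be compared between genes only per transcript length, here as RPKM, reads per kilobase of transcript per 10⁶ reads, computed from the deposited transcript counts. In MI hearts at 3 days Prc1 was highest with 53.8 and 61.3 RPKM, followed by Mki67 with 50.5 and 56.4 RPKM and Pttg1 with 43.6 and 44.9 RPKM. At the low end stood Kif18b with 3.21 and 3.40 RPKM and Espl1 with 2.84 and 2.92 RPKM. Of the 48 pairs of neighbours in that order, 7 did not overlap, among them Mki67 above Pttg1, Sgol1 above Kif18b and Kif18b above Espl1. In sham hearts at 3 days the order began with Pttg1 at 103 and 77.3 RPKM, Cenpa at 16.3 and 15.8 RPKM and Spc24 at 3.48 and 3.22 RPKM. Prc1, first in MI hearts, was at 1.98 and 1.05 RPKM there and ranked 13. Securin was thus the most abundant of the 49 transcripts per length in sham hearts by a wide margin, and ranked 3 in MI hearts of 3 days.

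**Figure D4:**
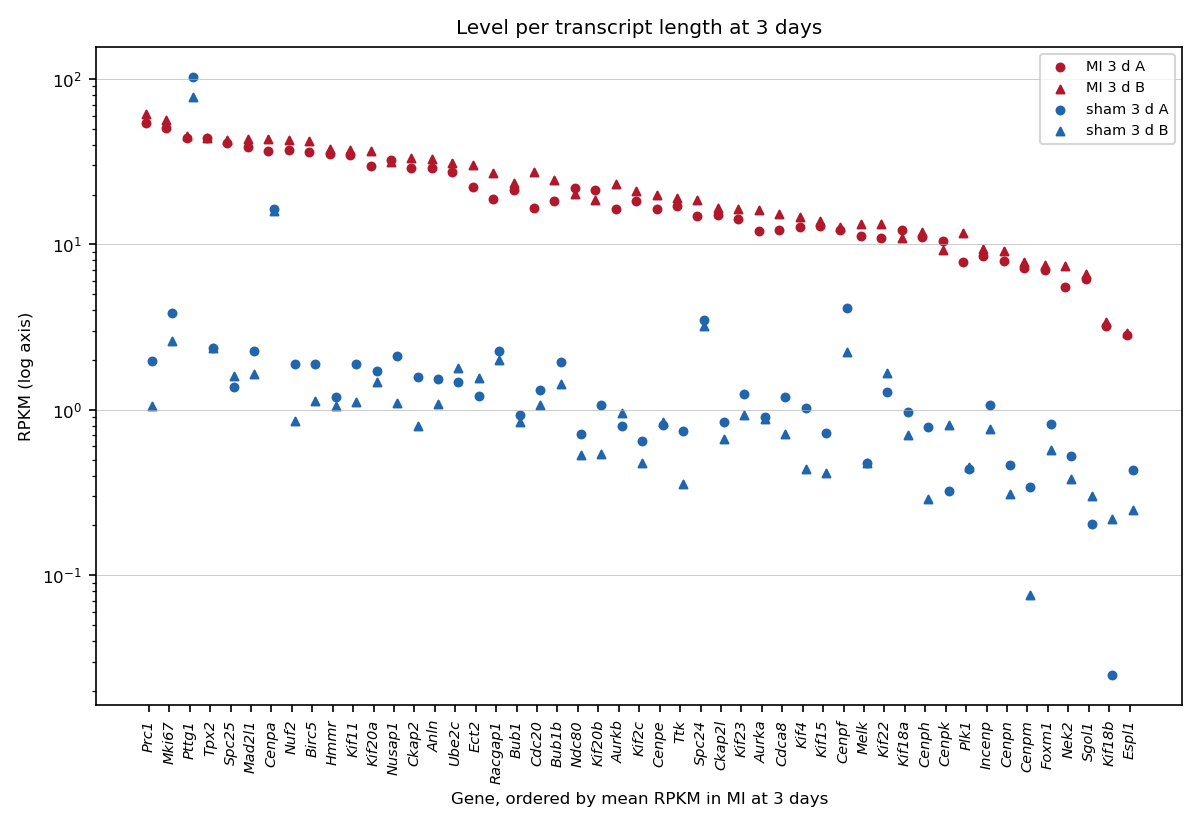
RPKM (log axis) of the 49 genes at 3 days, ordered by the mean in MI hearts, with MI libraries in red and sham libraries in blue. Pttg1 is the gene whose sham points (103 and 77.3 RPKM) lie above its MI points (43.6 and 44.9 RPKM), and Cenpa, at 16.3 and 15.8 RPKM in sham hearts, has the narrowest gap of the others.

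Other cell cycle genes gave a wider range of changes at 3 days. The mitotic entry and exit regulators were higher for 14 of 17, with a median log2 change of 3.91, led by Cdc25c, the phosphatase that switches on CDK1 (log2 change 5.51 ± 0.56), and Ccnb1, which encodes cyclin B1 (log2 change 5.18 ± 0.44). Other spindle, centrosome and midbody genes were higher for 22 of 26 and lower for 1, with a median log2 change of 3.64; Dlgap5, a spindle assembly factor, had a log2 change of 5.30 ± 0.45 and Cdca3, a trigger of mitotic entry, one of 5.20 ± 0.39, while Numa1, the pole protein NuMA, was at -0.73 ± 0.20. DNA replication genes were higher for 30 of 30 with a median log2 change of 2.82, led by Gins2, of the replicative helicase (log2 change 4.47 ± 0.43), and Tyms, thymidylate synthase (log2 change 4.30 ± 0.21). Other kinetochore genes were higher for 27 of 28 with a median log2 change of 2.50, led by Ska1, which couples kinetochores to microtubule ends (log2 change 5.30 ± 0.40),. All these medians lay far above the 0.16 of all genes.

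The remaining lists had lower medians. Condensin and cohesin genes were higher for 17 of 19 with a median log2 change of 1.06, led by the condensin subunits Ncapg (log2 change 4.81 ± 0.30) and Ncapg2 (log2 change 4.48 ± 0.44). Top2a, the topoisomerase that untangles sister chromatids, belongs to that list and had 577 and 667 CPM in MI hearts and 34.7 and 24.5 CPM in sham hearts (log2 change 4.39 ± 0.44). Subunits and cofactors of the anaphase-promoting complex were higher for 7 of 16 and lower for 1, with a median log2 change of 0.46. Its largest rises were those of the subunits Anapc15 (log2 change 1.86 ± 0.23) and Cdc16 (log2 change 1.62 ± 0.21), and its subunit Anapc13 was lower (log2 change -1.16 ± 0.20). The share of its genes called either way was 50%, against 55.4% of all genes tested. By direction, its 7 higher and 1 lower of 16 stand beside 31.7% and 23.7% of all genes.

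The DREAM and MMB complexes repress these genes in resting cells and activate them before mitosis, and their own genes split. Of 18, 12 were higher and 3 lower at 3 days, with a median log2 change of 1.27. Mybl2, the activating subunit B-MYB, had 5.66 and 7.76 CPM in MI hearts and 0 and 0.691 CPM in sham hearts (log2 change 4.26 ± 0.62), and E2f2, an activating E2F, rose by a log2 change of 3.24 ± 0.42. Lower were Rbl2, which encodes the repressive pocket protein p130 (log2 change -1.17 ± 0.16), Tfdp2, a partner of E2F factors (log2 change -2.67 ± 0.21) and the core subunit Lin52 (log2 change -1.02 ± 0.25). Rbl2 had 34.5 and 37.5 CPM in MI hearts and 85.0 and 77.1 CPM in sham hearts at 3 days, and at 1 day it was already lower with 34.9 and 35.1 CPM in MI hearts and 91.1 and 91.2 CPM in sham hearts (log2 change -1.38, edgeR adjusted p = 0.000426). At 1 day the 7 lists together had 19 genes called higher (12.3%) and 13 lower (8.44%) of 154, below the 19.3% and 19.7% of all genes tested. The lists differed, and the anaphase-promoting complex had 0 higher and 6 lower of 16. Called higher and lower were 5 and 2 of 19 condensin and cohesin genes, and 4 and 1 of 18 DREAM and MMB genes. Other spindle, centrosome and midbody genes had 4 and 2 of 26, and other kinetochore genes 3 and 1 of 28. DNA replication genes had 2 and 0 of 30, and mitotic entry and exit regulators 1 and 1 of 17.

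**Figure D5:**
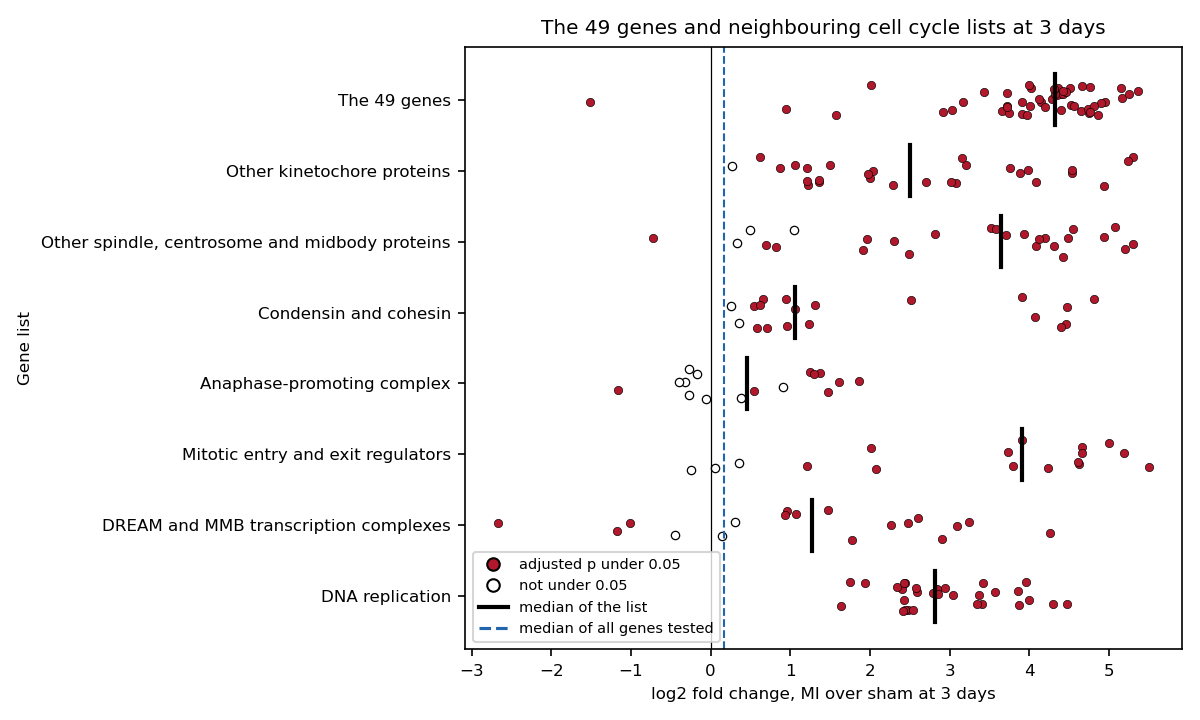
Log2 fold change of MI over sham at 3 days for each tested gene of the 49 and of 7 other cell cycle lists, with filled points for an adjusted p under 0.05, black bars for list medians and a dashed line for the median of all genes (log2 change 0.16). The 49 genes have a median of 4.33 and the anaphase-promoting complex one of 0.46.

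The 49 genes were also read in the other deposited tables. In the transcript tables, a second count of the same libraries, 48 of the 49 genes were higher and 1 lower at 3 days by edgeR, against 31.1% and 23% of genes tested there. At 1 day those tables called 2 higher, Kif18a and Sgol1, and 5 lower, Cenpa, Cenpf, Spc24, Kif20a and Pttg1, against 17.1% and 20.1%. In the authors' deposited table, 48 were higher and 1 lower in MI at 3 days, and 0 were higher and 2 lower at 1 day, by their own DESeq2 test. Of all genes listed there, with or without an adjusted p, 22.1% were higher and 22.6% lower at 3 days, and 7.14% and 9.16% at 1 day. Plk1, Birc5, Cdca8, Cenph, Cenpk and Cenpm had no adjusted p there at 1 day and could not be called. The transcripts of 10 of the 49 overlap another protein-coding gene, among them Aurka, Prc1, Cdc20 and Foxm1, and no source used here states whether reads were counted by strand, so some of their reads may belong to the neighbour.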

How the data were processed

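Libraries of 8 ventricles were made from total RNA after removal of ribosomal RNA and read from both ends, per the labels' protocols. The submitters' processing notes name the build mm10 and, without their roles, Bowtie2 2.2.5, TopHat2 2.0.14, SAMtools 0.1.2, HTSeq, FastQC and DESeq2. The authors deposited raw read counts per gene, and, per the file headers, log2 fold changes with adjusted p-values from their own DESeq2 test, and transcript tables with read counts and transcript length. By comparison with the counts, the deposited log2 values have MI on top in the table of 1 day and sham on top in that of 3 days. The 2 count columns of sham at 1 day share a header name but differ in 19436 genes. No column lacked a group.

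Both count tables were joined by symbol (24062 genes), filtered with filterByExpr (about 0.500 CPM in 2 libraries) and fitted together by group with edgeR 4.0.16 (R 4.3.3, TMM, robust quasi-likelihood, legacy off, common dispersion 0.0602, 4 residual degrees of freedom). Tests were 2-sided, adjusted over 15508 genes by Benjamini-Hochberg at 0.05. CPM use TMM effective library sizes. Transcript reads per kilobase per 10⁶ reads of the transcript table (RPKM) were summed per gene, and so were transcript reads for a second test of 14471 genes. Alternatives used DESeq2 1.42.0 and limma 3.58.1 (voom). SE is the size of the log2 fold change over the square root of F. P-values rest on a spread between mice that is pooled over the groups of 2 and moderated across genes. Libraries outside a comparison therefore also weigh on its p-values.

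The 49 genes and all lists were chosen with earlier results of these data known. Named were, in each role, the called genes with the largest and smallest change at 3 days and the highest RPKM, all genes called at 1 day, the 3 largest and 3 smallest changes at 3 days, Mki67, Foxm1, Plk1, Aurkb, Birc5, Cenpf and Top2a, and of each other list the 2 largest called changes and those called the other way. Others were added after their values were seen, to account for every gene. Promoters come from RefSeq (GRCm38.p6, the assembly of mm10); Aurkb, Incenp, Spc24, Tpx2, Kif20a and Foxm1 had no window matched, and Sgol1 was matched as Sgo1. Sgol2a of the lists was not analysed here. A gene that the naming rule selected from the other lists is not reported here.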

Additional observations from a re-analysis of the deposited data

Results flagged for a closer look

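The effect of MI on 37 of the 49 genes differed between 3 days and 1 day (edgeR interaction test, adjusted p under 0.05). The most positive differences, on the log2 scale, were those of Aurkb (5.95), Plk1 (5.29) and Nuf2 (5.22). The smallest called differences were those of Cenpa (1.73), Cenpf (2.70) and Bub1b (3.10). In MI hearts of 1 day Aurkb had 1 and 11 counts and Plk1 2 and 8, so their differences rest on few reads. The MI libraries of 1 day on which these differences rest were themselves unlike. Library B was above library A for 46 of the 49 genes, and the share of all genes with B above A was not computed. The part of that gap in the differences was not tested.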

How the results depend on the processing

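At 3 days the count of genes called, 49 of 49, was 48 to 49 with each library left out in turn, and likewise 48 to 49 for MI at 3 days against MI at 1 day, where the gene lost was Pttg1. The count of 5 at 1 day was 8 with DESeq2 (4 higher, 4 lower), 2 with only the 4 libraries compared in the fit, 2 without both B libraries of 1 day, and 2 to 14 with each library left out. The 14 came without MI library A of 1 day (11 higher, 3 lower), and 2 came without either sham library of 1 day or either MI library of 3 days. The 37 differences between days became 19 to 46 with each library left out. For sham at 3 days against 1 day the count of 0 was 2 with DESeq2 and 0 with each library left out. Hmmr at 1 day had a log2 change of 0.65, which reversed to -3.66 (adjusted p = 0.0281) without MI library B and was 1.79 (adjusted p = 0.0105) without A; the cause was not tested. Library size alone moved the median of all genes by 0.28 at 1 day and 0.26 at 3 days, and the split at 1 day to 3 higher and 2 lower. No paired analysis was possible because the count columns carry no replicate numbers. With 2 mice per group and as few as 7.38 × 10⁶ counts, changes in genes of under 1 CPM at 1 day were poorly resolved.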
